A study of Bos taurus with 8 samples.

Results

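The heat shock protein genes described here were 10 genes chosen by symbol: HSPA1A, HSPA8, HSPH1, DNAJB1, HSP90AA1, HSP90AB1, HSPB1, HSPB8, HSPD1 and HSPE1. A probe was counted for a gene when the RefSeq accession given for it in the array output maps to that symbol in the bovine reference gene table. By this rule 8 of the 10 genes were found, each with 1 probe, among 7788 genes named on an array of 21475 probes. HSPB1 and HSP90AB1 had no probe linked in this way and were not analysed here. The set goes by the name of cytosolic heat shock proteins, which does not hold for HSPD1 and HSPE1, which encode a chaperonin and its lid protein in the mitochondrion and are therefore described apart.

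Heat shock proteins are chaperones: they bind unfolded or partly folded proteins, keep them from aggregating and help them to fold. In the cytosol the HSP70 proteins (HSPA1A and HSPA8) bind short exposed stretches of a client, J-domain proteins such as DNAJB1 deliver clients and drive the ATP cycle, HSPH1 exchanges the nucleotide, and HSP90 (HSP90AA1) acts late in the folding of kinases and receptors. When unfolded proteins accumulate in heat, acid or oxidative stress, heat shock factor 1 induces a subset of these genes together, and HSPA1A, DNAJB1, HSPH1 and HSP90AA1 are among its well-known targets. The epithelium of the rumen is a keratinized, layered epithelium that meets the acids of fermentation.

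RNA of rumen papillae, the leaf-like projections of the rumen wall, was hybridized to 8 one-colour arrays of bovine oligonucleotides. The animals were 4 female, lactating, ruminally cannulated Holstein cows, and each was sampled once on a low-concentrate diet (LC, 40% concentrate) and once on a high-concentrate diet (HC, 70% concentrate), so that n = 4 arrays per diet. In period 1, cows 1 and 2 ate LC and cows 3 and 4 ate HC, and in period 2 the diets were exchanged. All cows had been fed a low-concentrate ration before the trial, and the papillae were cut from the ventral sac on day 21 of a period, 4 h after the morning meal, washed in cold buffer and frozen. The arrays of a period shared a slide, and period and slide cannot be told apart. The difference between the 2 arrays of a cow therefore holds the change of period and slide beside that of diet. HC came later in cows 1 and 2 and earlier in cows 3 and 4, so this part enters with opposite signs. The question of the comparison was which transcripts of the rumen epithelium differ between the diets.

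The tissue label was checked against keratinocyte markers. Of 13 listed, 9 had a probe, 8 of these exceeded background on every array, and TP63 was well above background on none. Their summed linear signal was 582000 to 700000 on the LC arrays and 603000 to 692000 on the HC arrays. Smooth muscle markers (9 of 9 with a probe) summed to 21600 to 27500 on LC and 21200 to 29400 on HC, and leukocyte markers (6 of 10 with a probe) to 1700 to 2200 on LC and 1590 to 2650 on HC. As papillae hold several cell types, fewer cells of a type and less RNA per cell cannot be told apart in any value below. Between 76.9 and 81.2% of the probes were well above background per array. The 2 arrays with the fewest such probes were that of cow 3 on LC (16504) and that of cow 1 on HC (16623). The 8 heat shock protein probes were well above background and free of saturated spots on every array.

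No heat shock protein gene met the study's call for a diet difference, a fold change of at least 1.5 with an unadjusted P under 0.05. The count was 0 of 8 in limma, where 0.922% of all probes met it, and every one of the 8 had an adjusted P of 0.999. Only HSPB8, a small heat shock protein, had an unadjusted P under 0.05 (1 of 8 genes, against 3.66% of all probes), and its mean was lower on HC. In the linear model without moderation 0 of 8 met the call and 0 had an unadjusted P under 0.05. HC means were above LC means for 5 of the 8 genes (HSPA8, HSPH1, DNAJB1, HSP90AA1 and HSPD1), where 50% of all probes had a higher HC mean. The median log2 fold change of HC over LC was 0.024, beside 0 over all probes. The LC and HC arrays overlapped in all 8 genes, whereas 1.61% of all probes had diets that did not overlap. Signals are given below as quantile-normalized log2 intensities, in which a step of 1 is a doubling. Levels of the heat shock protein genes were compared between arrays of 1 probe and not between probes. The marker sums above add the signals of different probes.

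**Figure D1:**
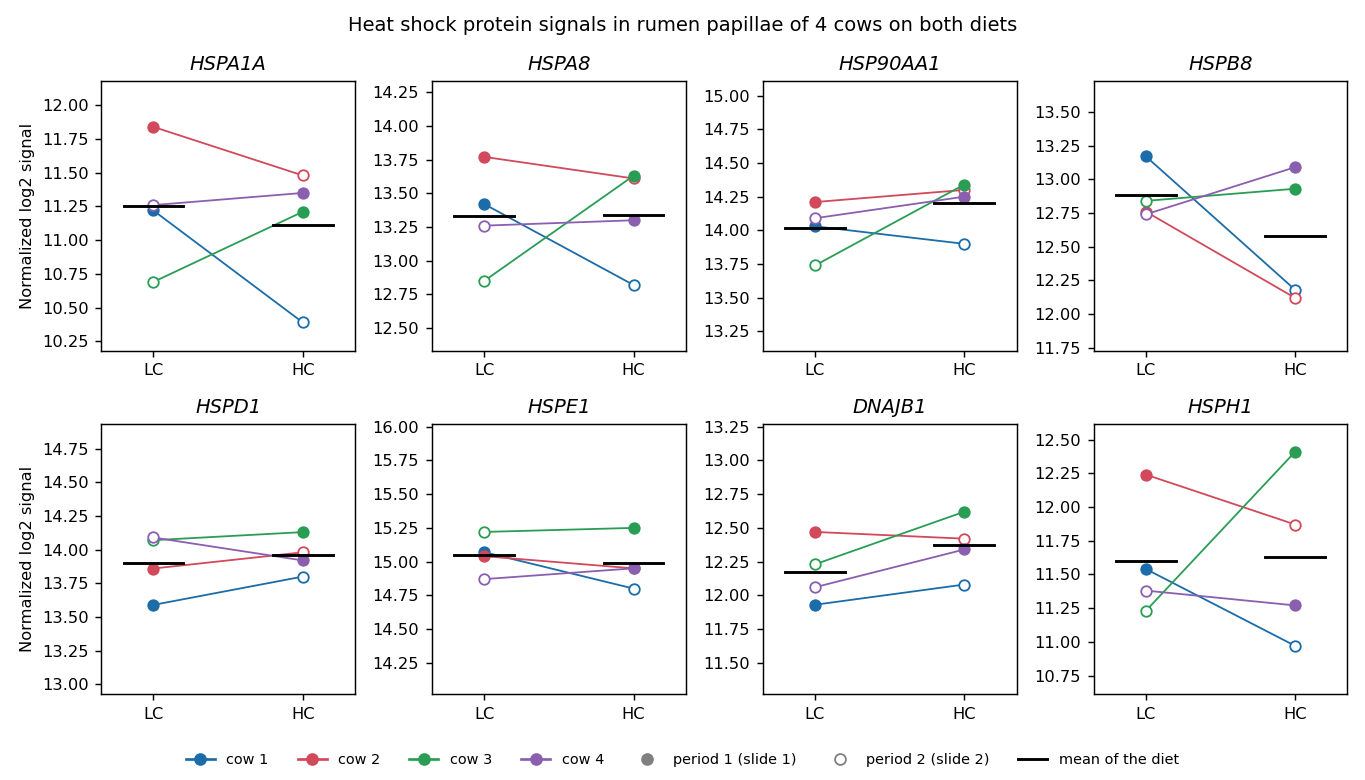
Normalized log2 signal (vertical axis) of the 8 heat shock protein genes on LC and HC (horizontal axis). Each line joins the arrays of 1 cow, filled points are period 1 and open points period 2, black bars are the means of the 4 arrays of a diet, and every panel spans the same number of log2 units. In HSPA1A the line of cow 1 runs from 11.22 to 10.39 while that of cow 3 runs from 10.69 to 11.21, and in HSPB8 the open HC points of cows 1 and 2 lie below all other points.

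HSPA1A (RefSeq NM_203322) encodes the stress-inducible HSP70. Its signal was 11.22, 11.84, 10.69 and 11.26 on LC in cows 1 to 4, and 10.39, 11.48, 11.21 and 11.35 on HC. The lowest array was cow 1 on HC and the next was cow 3 on LC, so both diets held a low array. Their ranges overlapped, at 10.69 to 11.84 on LC and 10.39 to 11.48 on HC. The mean was 11.25 ± 0.47 (SD, n = 4) on LC and 11.11 ± 0.49 (SD, n = 4) on HC, giving a log2 fold change of -0.14 ± 0.29 (standard error), an unadjusted limma P of 0.633 and a P of 0.686 in the exact two-sided permutation test. The 95% interval ran from 0.559-fold to 1.47-fold of the LC level, so differences in either direction within it were not excluded. Its lower end lay beyond the 1.5-fold limit and its upper end just within it. The sign turned when the HC array of cow 1 (0.13) or the LC array of cow 2 (0.01) was left out. The reference table lists HSPA1B, a nearly identical neighbour copy, as a synonym of HSPA1A, and the probe's signal cannot be divided between the copies.

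HSPA8 (NM_174345) encodes HSC70, the HSP70 that cells make all the time. LC signals were 13.42, 13.77, 12.85 and 13.26 in cows 1 to 4, and HC signals were 12.82, 13.61, 13.63 and 13.30. Again cow 1 on HC and cow 3 on LC were the low arrays, within 0.03 of each other, and cow 2 was high on both diets. The means of 13.33 ± 0.38 (SD, n = 4) on LC and 13.34 ± 0.38 (SD, n = 4) on HC gave a log2 fold change of 0.02 (standard error 0.21; limma P = 0.946, exact permutation P = 0.943). The 95% interval of 0.704-fold to 1.45-fold lay within the 1.5-fold limit on both sides. Behind the equal means stood cow differences of -0.59 in cow 1 and 0.78 in cow 3, with -0.16 and 0.04 in cows 2 and 4. Each of these also holds the change of period, and the period difference of HSPA8 was -0.39 (standard error 0.21).

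HSPH1 (NM_001075302) encodes HSP110, the nucleotide exchange factor of the HSP70s. It measured 11.54, 12.24, 11.23 and 11.38 on LC and 10.97, 11.87, 12.41 and 11.27 on HC in cows 1 to 4. Cow 3 on HC held the highest and cow 1 on HC the lowest of all 8 arrays, so the HC group enclosed the whole LC group. The means were 11.60 ± 0.45 (SD, n = 4) and 11.63 ± 0.64 (SD, n = 4), which is a log2 fold change of 0.03 (standard error 0.33; limma P = 0.922, exact permutation P = 0.943). In cow 3 the HC array was 1.18 above the LC array, the widest difference of any cow in any of the 8 genes, while cows 1, 2 and 4 differed by -0.57, -0.38 and -0.11. The log2 fold change became -0.25 when the HC array of cow 3 was left out.

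DNAJB1 (NM_001033763) encodes HSP40, the J-domain partner of the HSP70s. The LC signals were 11.93, 12.47, 12.23 and 12.06, and the HC signals were 12.08, 12.42, 12.62 and 12.34. The HC array was higher in cows 1, 3 and 4 and lower by 0.05 in cow 2, and the diets overlapped. The means of 12.17 ± 0.23 (SD, n = 4) and 12.37 ± 0.22 (SD, n = 4) gave a log2 fold change of 0.19 (standard error 0.16; limma P = 0.275, exact permutation P = 0.257). The direction held with each array left out in turn, with values from 0.06 to 0.33, but the spread between cows was as wide as the difference.

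HSP90AA1 (NM_001012670) encodes the inducible cytosolic HSP90. Its LC signals were 14.03, 14.21, 13.74 and 14.09, and its HC signals 13.90, 14.30, 14.34 and 14.25. Cow 3 on LC was the lowest array, cow 3 on HC the highest, and the other 6 arrays lay between them. The means were 14.02 ± 0.20 (SD, n = 4) and 14.20 ± 0.20 (SD, n = 4), with a log2 fold change of 0.18 (standard error 0.14; limma P = 0.238, exact permutation P = 0.286). Higher HC signals occurred in 3 of 4 cows, and leaving out each array in turn gave 0.08 to 0.28. The 95% interval ran from 0.899-fold to 1.43-fold.

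HSPB8 (NM_001014955) encodes a small heat shock protein that works with the HSP70 co-chaperone BAG3 in clearing misfolded proteins. The LC signals were 13.17, 12.76, 12.84 and 12.74 in cows 1 to 4, and the HC signals were 12.18, 12.12, 12.93 and 13.09. The 2 lowest arrays were those of cows 1 and 2 on HC, both from period 2, while the HC arrays of cows 3 and 4 lay within the range of the LC arrays. The mean was 12.88 ± 0.20 (SD, n = 4) on LC and 12.58 ± 0.50 (SD, n = 4) on HC. This is a log2 fold change of -0.30 ± 0.12 (standard error), or 1.23-fold lower on HC. In limma the unadjusted P was 0.0473 and the adjusted P 0.999, and the exact permutation P was 0.371. The direction was shared by 2 of 4 cows (-0.99 and -0.63 in cows 1 and 2, 0.09 and 0.35 in cows 3 and 4). Within period 1, HC minus LC was 0.04, and within period 2 it was -0.64. With cow as a block beside period the P was 0.0505, and with cow as a block and no period term it was 0.289.

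HSPB8 was also the gene of the set with the clearest difference between periods. Its period 2 signals averaged 0.52 (standard error 0.12) below those of period 1, a 1.43-fold difference, with an unadjusted P of 0.0046 and an adjusted P of 0.178 in limma and P = 0.0571 in the exact permutation test. The mean of its 2 arrays was 12.96 for LC in period 1, 12.79 for LC in period 2, 13.01 for HC in period 1 and 12.15 for HC in period 2. Thus 3 of the 4 pairs of arrays lay close together and the HC pair of period 2 stood apart. The interaction of diet and period, which in this crossover equals the contrast of the first 2 cows with the last 2, had a P of 0.0288 (adjusted 0.45) when arrays were treated as independent, and 0.0605 (adjusted 0.817) in limma on the mean of each cow. HSPB8 was 1 of 8 genes with an interaction P under 0.05, beside 10.2% of all probes, and 0 of 8 also reached 1.5-fold, beside 2.93%. For BAG3, its partner, the log2 fold change was -0.12 (standard error 0.11; limma P = 0.289, exact permutation P = 0.286).

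HSPD1 (NM_001166609), which encodes mitochondrial HSP60, measured 13.59, 13.86, 14.07 and 14.09 on LC and 13.80, 13.98, 14.13 and 13.92 on HC. The LC array of cow 1 was lowest and the other 7 arrays lay within 0.33 log2 units of each other. Its log2 fold change was 0.06 (standard error 0.11; limma P = 0.623, exact permutation P = 0.714), from means of 13.90 ± 0.23 and 13.96 ± 0.14 (SD, n = 4 each). HSPE1 (NM_174346), which encodes its lid, HSP10, measured 15.07, 15.04, 15.22 and 14.87 on LC and 14.80, 14.95, 15.25 and 14.95 on HC. Cow 3 was the highest on both diets and the LC and HC values interleaved. The log2 fold change of HSPE1 was -0.06 (standard error 0.12; limma P = 0.639, exact permutation P = 0.600), from means of 15.05 ± 0.15 and 14.99 ± 0.19 (SD, n = 4 each). The 95% intervals, 0.866-fold to 1.25-fold for HSPD1 and 0.778-fold to 1.18-fold for HSPE1, were, with that of HSPB8, the narrowest of the set. Within period 1 HSPD1 was 0.30 higher on HC and within period 2 it was 0.19 lower. In this crossover that difference between periods is the contrast of the mean of cows 1 and 2 with the mean of cows 3 and 4. Cow, diet sequence and period cannot be told apart in it, so it does not show that the diet difference depended on period.

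**Figure D2:**
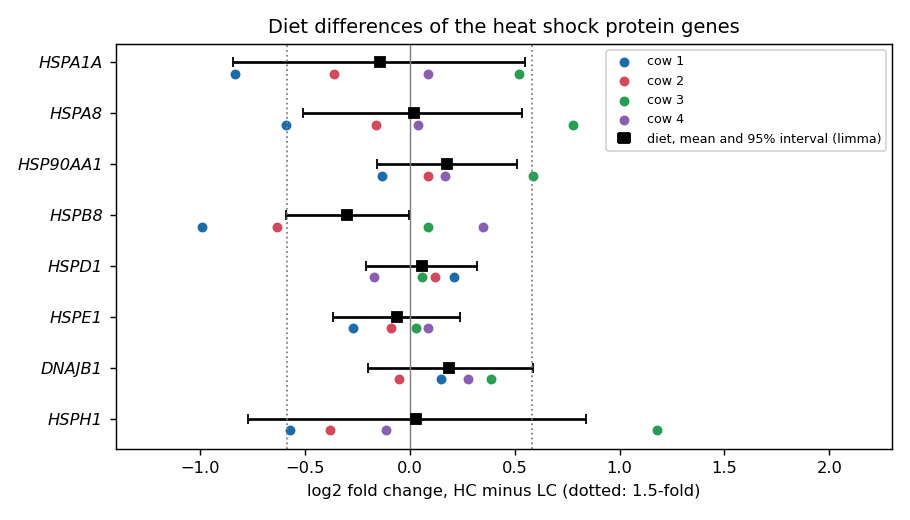
Log2 fold change of HC over LC (horizontal axis) for each heat shock protein gene. Black squares are the limma estimates with 95% intervals, coloured points are the differences of the single cows, and dotted lines mark 1.5-fold. The difference of a single cow also holds the change of period and slide. The intervals of HSPA8, HSP90AA1, HSPD1 and HSPE1 lie between the dotted lines, only that of HSPB8 leaves out 0, and cow 3 gives the rightmost point in HSPA1A, HSPA8, HSPH1, DNAJB1 and HSP90AA1.

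Across the 8 arrays, 6 of the 8 genes varied more than the median probe, which had an SD of 0.20 among probes above background on all arrays. HSPH1 varied most, with an SD of 0.51, at or above that of 95% of those probes, and a 2.72-fold range from cow 1 to cow 3 on HC. HSPA1A followed with an SD of 0.45 (at or above 92.5% of probes) and a 2.73-fold range, then HSPB8 with 0.39 (88.1%) and 2.07-fold and HSPA8 with 0.35 (84.1%) and 1.93-fold. DNAJB1 (SD 0.24, 61.1%) and HSP90AA1 (0.21, 52.4%) were nearer the middle. The mitochondrial pair was steadier than the median probe, at 0.18 for HSPD1 and 0.16 for HSPE1. Without cow 3 on LC and cow 1 on HC, the arrays with the fewest probes above background (a setting chosen after the values were seen), the range was 1.55-fold for HSPA1A (SD 0.24, at or above 65.4% of probes) and 1.42-fold for HSPA8 (0.20, 53.1%). It was 2.21-fold for HSPH1 (0.47, 93.5%) and 2.07-fold for HSPB8 (0.37, 87.2%). These arrays were the lowest of HSPA1A, HSPA8 and HSPH1, so a narrower range was bound to follow there, and HSPH1 kept a wide one. The extremes of HSPB8 lay on other arrays, so its range could not change.

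The genes of the HSP70 and HSP90 system varied together over the arrays. Averaged over HSPA1A, HSPA8, HSPH1, DNAJB1 and HSP90AA1, the deviation from the mean of a gene's 8 arrays was -0.07, 0.41, -0.35 and -0.09 on LC in cows 1 to 4 and -0.47, 0.23, 0.34 and 0 on HC. Cow 2 was thus high on both diets, and cow 3 was low on LC and high on HC. Pearson's r over the 8 arrays was 0.91 between HSPA1A and HSPA8 (Spearman's rho 0.69), 0.89 between HSPA8 and HSPH1 (0.95), and 0.86 between HSPA8 and HSP90AA1 (0.74). These are descriptions of 8 arrays from 4 cows on 2 slides, 2 arrays per cow, with no test. Of the 28 pairs among the 8 genes, 7 had an r of at least 0.70, and all 7 were among the 10 pairs of this system, where 4.18% of all pairs of genes above background on all arrays reached it. The other 3 pairs of the system were those of DNAJB1 with HSP90AA1 (0.66), HSPA8 (0.58) and HSPA1A (0.45). The count of 7 holds for all 8 arrays, and most of these pairs fell below 0.70 without cow 3 on LC and cow 1 on HC, as given below. HSPD1 and HSPE1, which form 1 complex, had an r of 0.29, and HSPB8 had an r between -0.13 and 0.53 with each of the others.

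**Figure D3:**
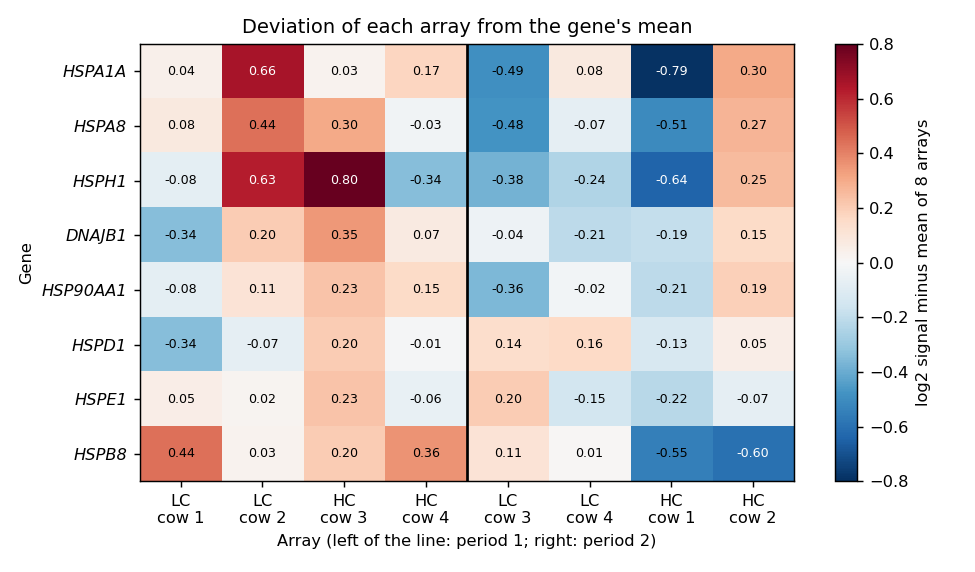
Deviation of each array (columns, period 1 left of the line and period 2 right of it) from the mean of the gene's 8 arrays (rows), in log2 units, with the value printed in each cell. The columns of cow 3 on LC and cow 1 on HC are negative for HSPA1A, HSPA8, HSPH1, DNAJB1 and HSP90AA1, from -0.04 to -0.79, and the lowest cells of HSPB8 are cows 1 and 2 on HC.

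The arrays of cow 3 on LC and cow 1 on HC were the 2 lowest of the 8 in HSPA1A, HSPA8, HSPH1 and HSP90AA1. That is 4 of 8 genes, where these same arrays were the 2 lowest in 3.12% of the probes above background on all arrays. The arrays were picked after the values were seen and the 4 genes varied together, so this is a description and no test. Both arrays are also the 2 with the fewest probes above background and they share the period 2 slide. The part of either in the result was not tested. HSPB8, HSPD1 and HSPE1 were not low on the array of cow 3 on LC. Without both arrays, chosen after their values were seen, r was 0.66 between HSPA1A and HSPA8, 0.51 between HSPA8 and HSP90AA1 and 0.23 between HSPA1A and HSP90AA1. Between HSPA8 and HSPH1 it was 0.91 and between DNAJB1 and HSPH1 0.75. It was 0.56 between HSP90AA1 and HSPH1 and 0.38 between HSPA1A and HSPH1, so most of the pairs counted above fell below 0.70. DNAJB1 with HSP90AA1 rose to 0.95, and HSPE1 with HSPH1, a pair outside the system, to 0.75. The median log2 fold change of the 8 genes without both arrays was 0.102, and 0 of 8 met the call for diet.

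Signals in period 2 averaged below those in period 1 for 7 of the 8 genes, HSPD1 being the other, where 45.9% of the probes above background on all arrays were lower in period 2. The median difference was -0.30 for the 8 genes and 0.02 for those probes. For HSPA1A it was -0.45 (standard error 0.29; limma P = 0.165, exact permutation P = 0.257). For HSPH1 it was -0.50 (0.33; 0.178 and 0.200 by the same tests), and for HSPA8 -0.39 (0.21; 0.114 by both). Only HSPB8 had a P under 0.05 (1 of 8, beside 12.3% of all probes), and 0 of 8 also reached 1.5-fold, beside 3.86%. With cow as a block HSPA1A too had a P under 0.05 (0.0245), and with cow as a random block both HSPA1A (0.0499) and HSPA8 (0.0457) did. Without the arrays of cow 3 on LC and cow 1 on HC, both from period 2, the period difference was -0.04 for HSPA1A, -0.10 for HSPA8 and -0.01 for HSP90AA1, while that of HSPB8 was -0.56 (limma P of 0.031). The count past both limits was 2 without the HC array of cow 2 (HSPA1A at -0.72 and HSPA8 at -0.59), 1 without the LC array of cow 2 (HSPB8 at -0.62) and 1 without the HC array of cow 4 (HSPH1 at -0.79).

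Animals could be compared within a diet and a slide for cows 1 and 2 and for cows 3 and 4, which ate the same diet in each period. Cow 2 was higher than cow 1 on both diets in 6 of the 8 genes, as it was in 32.5% of the probes above background on all arrays. HSPA1A was 0.62 higher in cow 2 on LC and 1.09 higher on HC (against one of the arrays with the fewest probes above background), HSPH1 0.70 and 0.89, HSPA8 0.35 and 0.78, and DNAJB1 0.54 and 0.34. The differences were smaller in HSP90AA1 (0.19 and 0.40) and HSPD1 (0.27 and 0.18), and HSPB8 went the other way (-0.41 and -0.05). Counted in either direction, cows 1 and 2 stood in the same order on both diets in 7 of 8 genes (62.7% of those probes), and cows 3 and 4 in 3 of 8 (59.6%). Cow 4 minus cow 3 kept its sign in HSPA1A (0.57 on LC and 0.14 on HC), DNAJB1 (-0.17 and -0.28) and HSPE1 (-0.35 and -0.29). It changed sign in the other 5, from 0.15 to -1.14 in HSPH1 and from 0.41 to -0.33 in HSPA8. In the table of normalized values deposited beside the array output, the columns of cows 1 and 2 hold each other's values in all 8 genes, within 0.02. Which of these animals is cow 1 is therefore not settled, and neither the diet comparison nor the pairing depends on it.

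Among 6468 genes above background on all arrays, those that followed the 3 most variable heat shock protein genes most closely were read off by Pearson's r over the 8 arrays, as a description. HSPH1 was followed by CLDN4, a claudin of tight junctions (r = 0.978, rho = 0.93), PRDX2, a peroxiredoxin (0.947, 0.93), and EMX1, a homeobox factor (0.937, 0.86). Without the 2 arrays farthest from the median of HSPH1, r was 0.91, 0.87 and 0.77. CLDN4 ranged from 9.80 to 10.73, a narrower span than the 10.97 to 12.41 of HSPH1. HSPA1A was followed by AP3M1, a subunit of the AP-3 vesicle adaptor (0.943, 0.95), ENDOD1 (0.930, 0.81) and CEP290, a protein of the centrosome and cilium (0.919, 0.74). HSPB8 was followed by CYP2E1, a cytochrome P450 (0.952, 0.81), AKR7A2, an aldehyde reductase (0.924, 0.93), and PAQR9 (0.914, 0.93). Leaving out the 2 farthest arrays in the same way gave 0.99, 0.85 and 0.74 for the genes nearest to HSPA1A. For those nearest to HSPB8 it gave 0.71, 0.89 and 0.77. No heat shock protein gene was among the nearest 3 of these 3 genes, and the other genes of the set were not searched in this way. HSPA8 came close, at rank 4 of 6468 for HSPA1A and rank 15 for HSPH1. For HSPB8 the nearest of the set was HSPE1, at rank 552. CYP2E1 spanned only 4.34 to 4.91, near the low end of the signals.

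Other chaperones, heat shock factors and their targets, and immediate early genes were read from 10 lists with 116 genes, of which 73 had a probe and 69 were above background on all arrays. None of the 69 met the call for diet in limma, 2 (2.90%) had an unadjusted P under 0.05 beside 2.61% of probes with the same background limit, 34 had a higher HC mean, and their median log2 fold change was 0. HSF1 had no linked probe. HSF2, a second heat shock factor, measured 8.79, 9.20, 9.20 and 9.19 on LC and 8.62, 8.86, 9.38 and 9.01 on HC, with a log2 fold change of -0.13 (standard error 0.14; limma P = 0.408, exact permutation P = 0.629). It was lower on HC in cows 1, 2 and 4 and higher in cow 3, and the diets overlapped.

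**Figure D4:**
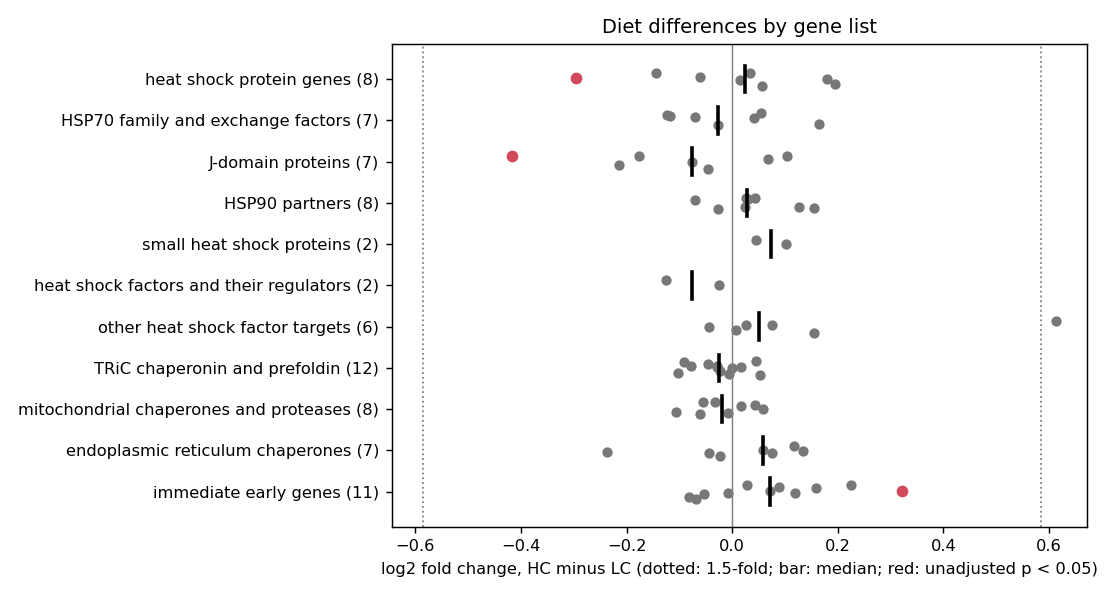
Log2 fold change of HC over LC (horizontal axis) for the 8 heat shock protein genes and for the genes of each list above background on all arrays (number in brackets). Each point is a gene, bars are medians, dotted lines mark 1.5-fold and red points have an unadjusted P under 0.05. The medians lie between -0.08 and 0.07, and the red points are HSPB8, DNAJA4 and KLF6.

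Taken by role, the HSP70 family and its exchange factors (7 genes above background on all arrays) had a median log2 fold change of -0.03, and 0 of 7 had a P under 0.05. HSPA4, a relative of HSPH1, had a value of -0.12 (standard error 0.12). Of the 7 J-domain proteins, 1 had a P under 0.05: DNAJA4, named after its values were seen, at -0.42 (standard error 0.16; limma P = 0.0374, adjusted 0.999, exact permutation P = 0.257). Its signals were 10.04, 10.15, 9.39 and 9.31 on LC and 8.70, 9.38, 9.61 and 9.53 on HC. As in HSPB8, cows 1 and 2 were lower on HC and cows 3 and 4 higher, and cow 1 on HC was the lowest array. The period difference of DNAJA4 was -0.64 (limma P = 0.00627, adjusted 0.198, exact permutation P = 0.0286, the smallest possible). This was past both limits, as for 1 of the 7 genes of the list, beside 3.86% of all probes. DNAJA1, another partner of the HSP70s, had a diet value of -0.18 (standard error 0.32). Cow 2 was higher than cow 1 in DNAJA1 by 0.82 on LC and 1.18 on HC, as in HSPA1A, while cow 4 minus cow 3 was -0.22 and -0.60, against 0.57 and 0.14 in HSPA1A.

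The partners of HSP90 (8 genes) had a median of 0.03 and none had a P under 0.05. STIP1, which links HSP70 to HSP90, was lowest in cow 3 on LC (12.06) and highest in cow 3 on HC (12.90), the same extreme arrays as HSP90AA1, with a diet value of 0.13 (0.15). The 12 subunits of the TRiC chaperonin and prefoldin, which fold actin and tubulin, had a median of -0.03 and spanned -0.10 to 0.05. The 8 mitochondrial chaperones and proteases had a median of -0.02 and spanned -0.11 to 0.06. Among 5 small heat shock proteins with a probe, HSPB2 and HSPB6 were above background on all arrays, at 0.10 (0.17) and 0.05 (0.11), and HSPB3 on none.

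The chaperones of the endoplasmic reticulum (7 genes), which respond to unfolded proteins in that compartment, had a median diet value of 0.06 and 0 of 7 had a P under 0.05. Their mean deviation was 0.13, 0.27, -0.34 and -0.08 on LC in cows 1 to 4 and 0.06, 0.29, -0.28 and -0.05 on HC. In this mean, cow 2 was high and cow 3 low on both diets, but single genes went both ways: HC minus LC was -1.10 in cow 1 and 0.65 in cow 4 for PDIA3, a disulfide isomerase, and 0.41 in cow 1 for DNAJC3. The mean of the 5 cytosolic genes was likewise high in cow 2, but in cow 3 it was low on LC and high on HC. HSPA5, the HSP70 of the endoplasmic reticulum, gave 13.49 on LC and 13.82 on HC in cow 3, and 14.62 and 14.63 in cow 2.

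Immediate early genes, which are induced within minutes by stimulation or handling of tissue, were read beside the chaperones. Of 11 genes, 1 had a P under 0.05: KLF6, named after its values were seen, at 0.32 (standard error 0.13; limma P = 0.042, adjusted 0.999, exact permutation P = 0.0857), with overlapping diets and a higher HC signal in 4 of 4 cows. The mean deviation of the 11 genes was -0.33, 0.09, 0.10 and -0.02 on LC and -0.15, -0.04, 0.35 and -0.01 on HC in cows 1 to 4. It was highest in cow 3 on HC and lowest in cow 1 on LC, whereas the 5 genes of the HSP70 and HSP90 system were highest in cow 2 on LC and lowest in cow 1 on HC. Keratinocyte markers deviated by -0.13 to 0.12 and followed neither group, being -0.05 in cow 3 on LC and -0.08 in cow 1 on HC. Leukocyte markers were highest in cow 1 on HC (0.35) and lowest in cow 3 on LC (-0.22), which are the 2 lowest arrays of HSPA1A and HSPA8, and their part in the result was not tested. Of the 6 other targets of heat shock factors, which include ubiquitin and heme oxygenase genes, 0 had a P under 0.05. A higher HC mean was seen in 5, where 50% of all probes had one, and the median log2 fold change was 0.05. HMOX1, named after its values were seen, was at 0.61 (standard error 0.29; limma P = 0.0796, exact permutation P = 0.114), with -0.39 in cow 2. The next highest of the list was CHORDC1, at 0.15.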

How the data were processed

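Rumen papillae RNA of 4 cows on LC and HC was hybridized to 8 one-colour arrays. The authors deposited Feature Extraction 10.7.3.1 output with background-subtracted intensity per spot, and a table of log2 values per probe that they had quantile-normalized, which was used as an alternative. Groups, cows and periods were taken from the labels. After controls and outlier spots (0 to 11 per array) had been removed, log2 intensities were quantile-normalized (limma 3.58.1, R 4.3.3) and replicate spots averaged, without a filter on dim probes. For all 21475 probes, limma fitted diet, period and the interaction (4 residual and 2.26 prior degrees of freedom), with Benjamini-Hochberg adjustment. The smallest adjusted P for diet was 0.413. The exact two-sided permutation test of 4 against 4 arrays cannot go below 0.0286. P values treat the arrays as replicates of a diet.

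Probes were named through RefSeq accessions and the ARS-UCD2.0 gene table. Positions and sequences are not given. The heat shock protein genes, gene lists and alternatives were chosen with earlier results of these data known. Named in the text were the listed heat shock protein genes, HSF1 and HSF2, list genes past both limits for diet (0 were), and the 3 genes most like each of the 3 most variable ones. Other named genes served as examples chosen after their values were seen. For arrays of one cow by the labels, deviations from the diet mean correlated at 0.285, 0.298, 0.467 and 0.113 in cows 1 to 4 (16030 probes). Between cows the range was -0.237 to 0.185, so cows 1 to 3 lay above it and cow 4 within it. The fit was tested on simulated data. The alternatives were another background correction, scaling, the deposited table, a filter on dim probes, other models, cow as a block and leaving out arrays.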

Additional observations from a re-analysis of the deposited data

Results flagged for a closer look

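For HSPB8, the measured difference between HC and LC was not the same in the 2 periods. In this crossover that is the contrast of the mean of cows 1 and 2 with the mean of cows 3 and 4. It does not measure whether the diet difference varied between cows. HC minus LC was 0.04 on the log2 scale within period 1 and -0.64 within period 2, and the interaction term had an unadjusted P of 0.0288 in limma (adjusted 0.45). It was 0.0605 (adjusted 0.817) on the mean of each cow, the level at which this contrast lies, with 4 cows. An interaction P under 0.05 in limma was reached by 1 of the 8 genes, beside 10.2% of all probes. HC signals were lower in 2 of 4 cows, cows 1 and 2, which ate HC in period 2. The differences of single cows also hold the period difference, which was -0.52. The HC arrays of cows 1 and 2 in period 2 were 12.18 and 12.12, beside 12.74 to 13.17 on the other 6. Cow, diet sequence and a diet difference that depends on period or slide cannot be told apart in this contrast. Values far from the others within a diet were looked for by Dixon's test in all 8 genes and none was found.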

How the results depend on the processing

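No heat shock protein gene met the call for diet in any of the 21 other fits, or for the interaction in those that held it. The number of all probes that met the call for diet was 198 and moved widely: 8 with normexp background correction, 75 with the filter on dim probes, 105 in the linear model without moderation, 415 in the deposited table and 239 to 404 as each array was left out. It was 360 without cow 3 on LC and cow 1 on HC together, a setting chosen after the data were seen. With cow as a replicate block it was 276 with period and 208 without, and 0 heat shock protein genes met it in either. The cause of these shifts was not tested.

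Heat shock protein genes with a higher HC mean numbered 5, but 3 without normalization between arrays and 2 to 6 as each array was left out, while their median log2 fold change went from -0.14 to 0.169. For period, 0 to 2 genes passed both limits as each array was left out. HSP90AA1 and DNAJB1 kept a positive and HSPB8 a negative sign in every fit over both periods, and HSPB8 had an unadjusted P under 0.05 in 7 of 21, from 0.0137 to 0.289. The signs of the others turned. HSPA8 was 0 with 75th percentile scaling and -0.02 without normalization, and HSPH1 was -0.01 without normalization. HSPE1 was 0.07 without cow 3 on LC and cow 1 on HC. As each array was left out, HSPA1A ranged from -0.42 to 0.13, HSPA8 from -0.18 to 0.21, HSPD1 from -0.01 to 0.12, HSPE1 from -0.15 to 0.03 and HSPH1 from -0.25 to 0.32. Background correction used the median spot signal, as the output has no mean signal. With 1 probe per gene, averaging probes changed nothing. The number of arrays limits the precision.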
